A study of Mus musculus with 6 samples.

Results

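Cytosolic ribosomal protein genes were followed in the soleus, a slow muscle of the calf, of mice that lacked or kept the G protein subunit gene Gna13 in muscle. The members were the genes whose array rows carried exactly 1 symbol and whose symbol has the form of a ribosomal protein of the large subunit (Rpl), the small subunit (Rps), the stalk (Rplp) or Rpsa. The rule used names only, and it found 67 of 23152 genes, read by 283 of 269751 rows, each row being 1 probe set. Of these, 41 belong to the large subunit, stalk included, and 26 to the small subunit. The control mice (WT) were Gna13 flox/flox. The knockout mice (MKO) were Ckmm-Cre; Gna13 flox/flox, so that Cre under the muscle creatine kinase promoter deletes Gna13 in muscle fibres, while endothelial, connective tissue and immune cells of the muscle keep it. All mice were male, 18 weeks old and fasted for 14 h, and all carried floxed alleles. Only MKO mice carried Cre. Each group had 3 mice with 1 array each, labelled as biological replicates, and the labels name no strain.

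The cytosolic ribosome reads mRNA and joins amino acids. Its small subunit decodes the message, its large subunit forms the peptide bond, and the stalk of Rplp0, Rplp1 and Rplp2 recruits the translation factors that drive each step. Most ribosomal protein mRNAs begin with a cytosine followed by a run of pyrimidines, the 5′ terminal oligopyrimidine (TOP) motif, through which growth signals and mTORC1 control their translation. In striated muscle the large subunit protein Rpl3 is largely replaced by its relative Rpl3l. Ribosomal protein genes have many processed pseudogenes, so rows of the array can read more than 1 locus.

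The start sites of members described below are shown because they carry the TOP motif or lack it. Each sequence is 30 bases of RefSeq's GRCm38.p6, 5′ to 3′ on the transcribed strand, with 10 bases before the annotated start. Capitals mark the cytosine and following pyrimidines that begin within 5 bases of the start.
Rps6 (chr4:86857348-86857377, minus strand): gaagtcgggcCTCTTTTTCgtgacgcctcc
Rpl28 (chr7:4792955-4792984, plus strand): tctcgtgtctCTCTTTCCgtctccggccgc
Rpl14 (chr9:120571507-120571536, plus strand): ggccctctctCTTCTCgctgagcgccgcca
Rplp2 (chr7:141447641-141447670, plus strand): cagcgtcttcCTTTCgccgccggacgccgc
Rps27 (chr3:90213629-90213658, minus strand): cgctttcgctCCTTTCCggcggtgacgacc
Rps27l (chr9:66946076-66946105, plus strand): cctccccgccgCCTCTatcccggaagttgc
Rps9 (chr7:3704031-3704060, plus strand): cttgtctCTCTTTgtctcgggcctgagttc
Rpl22 (chr4:152324426-152324455, plus strand): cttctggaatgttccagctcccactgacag
Rpl3l (chr17:24727816-24727845, plus strand): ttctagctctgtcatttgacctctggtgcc
Rpl39l (chr16:10170218-10170247, plus strand): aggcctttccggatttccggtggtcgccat
In Rps6, Rpl28, Rpl14, Rplp2 and Rps27 the marked run has its cytosine at the annotated start itself. Pyrimidines also stand directly before it in each of these windows. The capitals begin at the fitting cytosine nearest to the start. In the muscle form Rpl3l, in Rpl39l and in Rpl22 no such run begins within 5 bases of the start, although pyrimidine runs lie elsewhere in their windows. For Rpl22, Rpl3l and Rps27l, which have 2 annotated starts each, the upstream one is shown.

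The table of starts matched 54 of the 67 members, with 63 starts. A cytosine followed by at least 4 pyrimidines stood at the start itself in 11 of these 63 starts (17.5%), against 2.51% of 32851 starts of all genes. Within 5 bases of the start it stood in 26 of 63 (41.3%), against 18.3% of all starts. Only the transcribed strand was searched, since the motif is read from the mRNA's end. Annotated starts can lie a few bases away from those used in muscle. The 24 matched genes with such a run had a median log2 difference, MKO minus WT, of −0.06, and the 30 without it one of −0.08.

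Array medians over all rows ran from 4.87 to 4.95 in log2 units, with MKO replicate 1 the lowest. That array held the lowest value for 23.9% of all genes and the highest for 20.1%, the largest shares of any array. The 12 soleus markers, such as the slow myosin Myh7 and creatine kinase Ckm, all lay above the median gene, with array means from 10.1 to 10.2 in both groups. Of 7 Gna13 rows, row 17257825 read 5.48, 6.23 and 6.16 in WT and 3.43, 4.25 and 4.33 in MKO (−1.95, SE 0.40), a lower value in every MKO array. Other rows went the opposite way with groups that did not overlap: row 17257829 by 0.67 (SE 0.13), row 17257824 by 0.65 (SE 0.19) and row 17257828 by 0.51 (SE 0.13). The remaining 3 rows differed by −0.37, 0.23 and 0.55. None of the 7 passed the adjusted threshold over all rows, and which of them reads the deleted part is not given in the table. Fewer cells of a type and less RNA per cell cannot be told apart in such bulk samples.

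No ribosomal protein gene differed between MKO and WT past the adjusted threshold of 0.05, in either direction. With limma, 0 of 67 members passed, beside 0.0% of all genes, and the adjusted p was 0.9997 for each of them. At an unadjusted p under 0.05, 0 members were higher and 0 lower, where 1.92% of all genes were higher and 2.41% lower, 4.33% in all. The LPE test also called 0 members after adjustment, and at its unadjusted p under 0.05 it had 1 higher and 1 lower, where 1.43% of all genes were higher and 1.89% lower by that test. The smallest unadjusted p of a member was that of Rpl19, at 0.05, which ranked 1005 among all genes.

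The differences were small and their intervals bounded most of them. They ran from −0.44 for Rpl23a to 0.29 for Rps16, with a median standard error of 0.15. For 55 of the 67 members the 95% interval of the difference lay wholly within a 1.5-fold change either way. Among members above the median gene in level this held for 42 of 48, and among the dimmer ones for 13 of 19. The 12 members with wider intervals included Rps15, from −1.26 to 0.86, Rps6, from −0.65 to 0.85, and Rps15a, from −0.93 to 0.31. For these 12 a change of more than 1.5-fold is not excluded by the interval. Each interval is for the mean over a gene's rows, and 117 of the 283 rows did not lie above the median row. The intervals therefore do not bound single rows or the amount of RNA. Rps20, counted among the 55, averages rows at levels from 1.86 to 9.76.

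**Figure D1:**
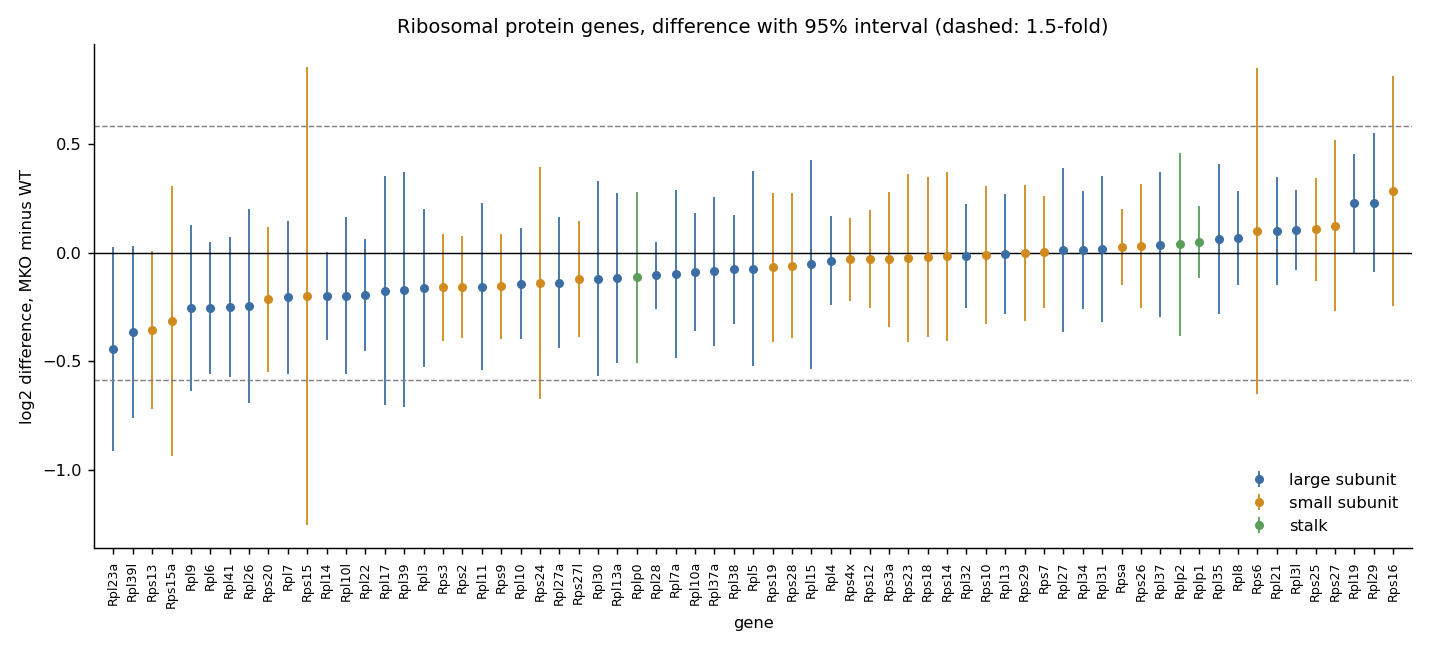
Log2 difference MKO minus WT (vertical axis) of the 67 ribosomal protein genes, ordered by difference, with 95% intervals from limma and dashed lines at a 1.5-fold change. Points run from −0.44 (Rpl23a) to 0.29 (Rps16), and 55 intervals lie wholly between the dashed lines.

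As a group the members lay slightly below WT. The median difference was −0.07 over the 67 members and −0.01 over all 23152 genes, and 48 members (71.6%) had a lower mean in MKO, against 53.4% of all genes. Large subunit genes without the stalk had a median of −0.10 (28 of 38 lower) and small subunit genes one of −0.03 (19 of 26 lower). The members' median deviation from the WT mean was −0.06, −0.06 and −0.07 in MKO replicates 1, 2 and 3. In WT replicates 1, 2 and 3 it was 0.00, 0.02 and −0.02, so the groups did not overlap. WT medians are held near 0 because each deviation is taken from the WT mean. The members' mean level, which uses no such reference, was 5.83 to 5.85 in WT and 5.74 to 5.79 in MKO. Over all genes the median deviations lay between −0.02 and 0.01 in the 6 arrays. Over the genes above the median gene, where 48 of the 67 members lie, they were 0.02, 0.03 and −0.05 in WT and −0.11, −0.03 and 0.03 in MKO, a wider range than that of the members. The 48 members there had medians of −0.01, 0.02 and −0.004 in WT and −0.06, −0.03 and −0.06 in MKO.

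**Figure D2:**
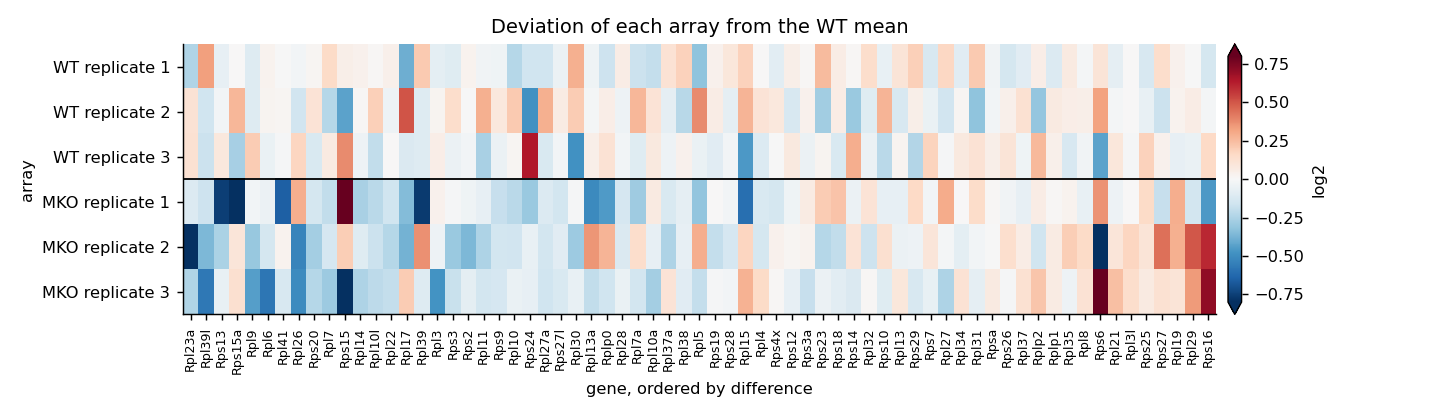
Deviation of each array from the WT mean (colour, log2, cut at 0.8 either way) for the 67 genes, ordered by difference, with WT arrays above the line and MKO arrays below. Several strong colours sit in 1 MKO array of a gene, such as replicate 1 for Rps15a and Rpl41 or replicate 2 for Rpl23a, while WT arrays differ strongly for Rps24 and Rpl17.

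The members were also read by level, without a test of the difference between levels. The 48 members above the median gene had a median difference of −0.04 (33 lower, 68.8%), and the 11576 genes above it also one of −0.04 (61.6% lower). The 19 dimmer members had a median of −0.12 (15 lower, 78.9%), while the 11576 dimmer genes had one of 0.02 (45.3% lower). These 2 sets were not matched in level, since the median level was 4.03 for the dimmer members and 3.39 for the dimmer genes. When only rows above the median row were used, the median of the 58 members that remained was −0.04, beside −0.02 over all genes. With rows of several symbols added it was −0.03 over 74 genes.

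**Figure D3:**
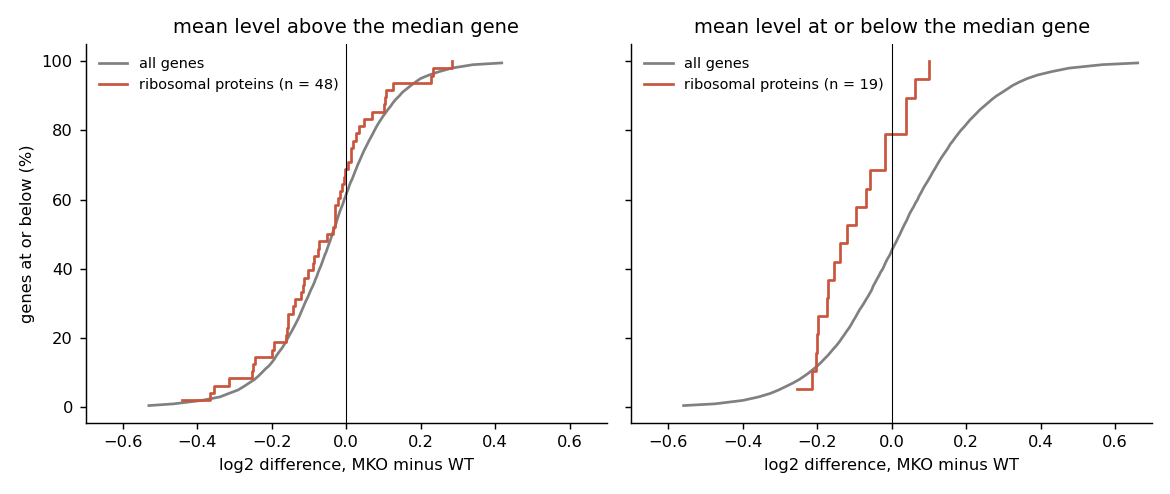
Cumulative share of genes (vertical axis, percent) by log2 difference MKO minus WT, for genes above (left) and at or below (right) the median gene in mean level; red steps are ribosomal proteins, grey lines all genes. The 48 brighter members run close to the grey line, and most of the 19 dimmer ones lie to its left, with medians of −0.12 for them and 0.02 for the grey line.

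Markers of some other cell types had lower means in MKO beside this shift, and those of others did not. Of all genes above the median gene, 61.6% had a lower mean. Of 7 fibroblast markers, 6 were lower, with array means of 7.85 to 8.19 in WT and 7.50 to 8.06 in MKO. All 7 endothelial markers were lower, with means of 6.84 to 7.23 in WT and 6.69 to 7.001 in MKO. Of 7 macrophage markers, 6 were lower, with means of 5.19 to 5.53 and 5.01 to 5.19. The groups overlapped for the fibroblast and endothelial lists and were almost in contact for the macrophage list, and no marker stands at 0 on this scale. The macrophage means owe much to 1 gene, Cd68, which differed by −0.82 (SE 0.26). The other macrophage markers ran from −0.18 (Csf1r) to 0.07 (Cd163), so the list does not set the groups apart as a whole. The median differences of the other lists were 0.08 (6 lymphocyte markers), −0.37 (2 erythroid), 0.02 (6 satellite cell), −0.12 (5 tenocyte), 0.18 (4 Schwann cell), −0.14 (5 adipocyte) and 0.26 (5 testis germ cell). The part of these cells in the ribosomal shift was not tested.

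For 8 members (11.9%) the MKO and WT values did not overlap, against 9.25% of all genes. For 7 members (10.4%) all MKO arrays were below all WT arrays, against 4.99% of genes, and for 1 (1.49%) they were above, against 4.26%. Genes above the median gene were more often below, 735 of 11576, beside 6 of the 48 members there. At or below the median gene it was 420 of 11576 genes and 1 of 19 members. The share of 4.99% is thus not matched to the members' levels. None of the 8 passed the adjusted threshold.

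Rpl19, a large subunit protein that reaches across to the small subunit, was the 1 member above in all MKO arrays. It read 7.20, 7.19 and 7.09 in WT and 7.45, 7.45 and 7.27 in MKO, a difference of 0.23 (SE 0.11) or 1.17-fold. Rpl14, an RNA-binding protein of the large subunit, read 8.11, 8.09 and 8.04 in WT and 7.82, 7.98 and 7.83 in MKO, a difference of −0.20 (SE 0.09). The highest MKO value of Rpl14, in replicate 2, was just below the lowest WT value. Rpl28, which is among the brightest members and found in eukaryotes but not in bacteria, read 9.91, 9.81 and 9.83 against 9.72, 9.73 and 9.80, a difference of −0.10 (SE 0.07). Its groups were almost in contact, at 9.81 in WT replicate 2 and 9.80 in MKO replicate 3. These 3 kept their sign in every alternative that was run on them, 16 for Rpl14, 16 for Rpl19 and 17 for Rpl28. Since their groups did not overlap, leaving out 1 array, weighting arrays or changing the variance model could not turn the sign. Only another scaling or another summary of rows could have done so, and most alternatives therefore say little about the sign. The size of the 3 differences did not hold: Rpl14 ran from −0.25 to −0.08, Rpl19 from 0.05 to 0.29 and Rpl28 from −0.13 to −0.02. The rows of Rpl19 also disagreed, from −0.07 to 0.88. Its largest difference was in row 17255917, at a level of 4.80, with 6.11, 5.13 and 4.47 in MKO.

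The other 5 turned sign under at least 1 alternative. Rpl22, an RNA-binding protein of the large subunit that is dispensable for protein synthesis in most cells, read 6.05, 5.97 and 6.01 in WT and 5.85, 5.78 and 5.82 in MKO, a difference of −0.19 (SE 0.12). With the median of its 8 rows the difference was 0.12. Rps9, which lies at the mRNA entry of the small subunit, read 6.48, 6.60 and 6.47 in WT and 6.33, 6.37 and 6.38 in MKO, a difference of −0.16 (SE 0.11) that was 0.23 with the median of its 13 rows. Rps27l, a relative of Rps27 that p53 induces, read 5.72, 5.83 and 5.74 in WT and 5.62, 5.67 and 5.64 in MKO, a difference of −0.12 (SE 0.12) that was 0.07 with the median of its 7 rows. All 3 had narrow groups in the mean of rows and disagreeing rows beneath it. Rps20, a protein of the head of the small subunit, read 4.32, 4.41 and 4.18 against 4.16, 4.03 and 4.07 (−0.21, SE 0.15), and its bright rows alone gave 0.10. Rps2, which lines the mRNA entry channel, rests on 1 row at 7.80, 7.77 and 7.75 in WT and 7.74, 7.41 and 7.69 in MKO (−0.16, SE 0.11). With its 4 rows that name other genes added, Rps2 stood at 0.13.

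Other members with small p had groups that overlapped, often through 1 array. Rps13, a small subunit protein at the joint with the large subunit, read 5.996, 6.04 and 6.15 in WT and 5.31, 5.81 and 6.003 in MKO (−0.36, SE 0.17). Its MKO replicate 1 was the low one. Rpl23a, which forms the docking site for the signal recognition particle at the tunnel exit, read 4.65, 5.002 and 5.012 in WT and 4.78, 3.91 and 4.65 in MKO on its 1 row (−0.44, SE 0.22). Here MKO replicate 2 was low. Rpl41, the shortest ribosomal protein, read 7.78, 7.80 and 7.77 in WT and 7.13, 7.81 and 7.66 in MKO (−0.25, SE 0.15). Without MKO replicate 1 the difference was −0.05. Rpl6, an RNA-binding protein of the large subunit, read 6.82, 6.82 and 6.74 in WT and 6.75, 6.65 and 6.22 in MKO (−0.25, SE 0.14), and with the median of its rows it was 0.14. In each of these 4 genes the lower MKO mean rested mainly on 1 array.

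On the higher side, Rps16, a small subunit protein that touches the tRNA, read 5.71, 5.84 and 6.02 in WT and 5.40, 6.46 and 6.57 in MKO on 1 row (0.29, SE 0.25). MKO replicate 1 was the lowest of all 6 arrays for it, and without that array the difference was 0.66. Rpl29, a large subunit protein that also binds heparin, read 7.01, 7.07 and 6.95 in WT and 6.86, 7.51 and 7.35 in MKO (0.23, SE 0.15). Again MKO replicate 1 was the lowest, and without it the difference was 0.42. Rps25, needed for initiation on some viral mRNAs, differed by 0.11 (SE 0.11) and Rpl21 by 0.10 (SE 0.12). Both overlapped between the groups, and Rpl21 turned to −0.33 with the median of its rows.

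The stalk proteins did not differ between the groups beyond their error. Rplp0, which anchors the stalk, read 5.18, 5.40 and 5.46 in WT and 4.89, 5.62 and 5.18 in MKO (−0.11, SE 0.18), and it turned to 0.06 without MKO replicate 1. Rplp1, a mobile stalk protein and one of the brightest members, read 9.51, 9.69 and 9.66 in WT and 9.64, 9.69 and 9.69 in MKO (0.05, SE 0.08, 95% interval −0.12 to 0.21). Its partner Rplp2 read 3.32, 2.96 and 3.53 in WT and 3.33, 3.11 and 3.49 in MKO (0.04, SE 0.19), with 0 of its 4 rows above the median row. The groups overlapped for all 3 stalk genes.

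Rpsa, a small subunit protein also known as the laminin receptor precursor, was among the best bounded. It read 8.69, 8.70 and 8.77 in WT and 8.73, 8.72 and 8.79 in MKO, a difference of 0.03 (SE 0.08, 95% interval −0.15 to 0.20). Rps4x, encoded on the X chromosome, read 8.67, 8.84 and 8.76 in WT and 8.62, 8.79 and 8.77 in MKO (−0.03, SE 0.09, interval −0.22 to 0.16). Rps6, the protein that S6 kinase phosphorylates downstream of mTORC1, rests on 1 row with 4.44, 4.65 and 3.90 in WT and 4.69, 3.44 and 5.16 in MKO (0.10, SE 0.35). MKO replicates 2 and 3 held the lowest and the highest Rps6 value of all arrays. Its 95% interval of −0.65 to 0.85 bounds little.

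Second copies of ribosomal proteins were compared with the proteins they resemble. Rpl3l, the striated muscle form of Rpl3, read 8.63, 8.62 and 8.62 in WT and 8.63, 8.79 and 8.76 in MKO over 12 rows, a difference of 0.11 (SE 0.09, 95% interval −0.08 to 0.29). MKO replicates 2 and 3 were above all WT arrays, and MKO replicate 1 was level with them. Of the 12 Rpl3l rows, 7 were higher and 5 lower, with a median difference of 0.02. The largest differences were in its dimmest rows, 17334411 at a level of 2.77 (0.79) and 17334407 at 5.56 (0.52). Its brighter rows had smaller differences of both signs. The general form Rpl3 read 4.63, 4.73 and 4.77 in WT and 4.74, 4.67 and 4.24 in MKO (−0.16, SE 0.17), with MKO replicate 3 low. Rpl10l, a testis form of Rpl10, read 3.89, 4.07 and 3.68 in WT and 3.67, 3.71 and 3.67 in MKO (−0.20, SE 0.17), at a level below the median gene. Rpl10 itself, a late-joining large subunit protein, read 7.71, 8.15 and 7.95 against 7.72, 7.78 and 7.88 (−0.14, SE 0.12). Rpl39l, a testis form of the tunnel protein Rpl39, read 4.97, 4.48 and 4.47 in WT and 4.47, 4.28 and 4.07 in MKO (−0.37, SE 0.18), and its bright rows alone gave 0.09. Rpl39 rests on 1 very dim row, at 1.76, 1.45 and 1.45 in WT and 0.78, 1.91 and 1.45 in MKO. Rps27 differed by 0.13 (SE 0.18) on 1 row, with MKO values of 4.25, 4.87 and 4.55 around the WT values of 4.57, 4.26 and 4.46.

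The change of a second copy relative to its parent was tested within arrays for 4 pairs. The largest was that of Rpl3l over Rpl3, at 0.27 higher in MKO (exact two-sided permutation p = 0.3, adjusted p = 0.8 over 4 pairs). It stood at −0.25 for Rps27l over Rps27 (exact permutation p = 0.4) and −0.06 for Rpl10l over Rpl10 (exact permutation p = 0.9). The fourth pair, Rpl39l over Rpl39, is not given, since Rpl39 has the lowest level of all members. With 3 mice against 3 this test cannot give a p below 0.1, so no pair could have passed the threshold and the p-values decide nothing.

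**Figure D4:**
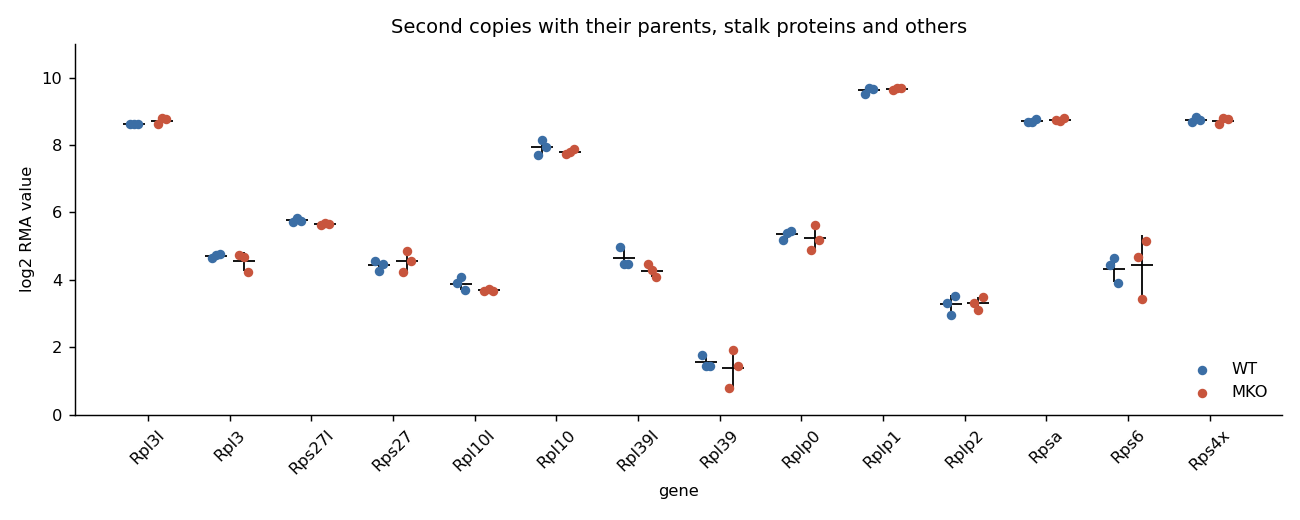
Log2 RMA value (vertical axis) on each WT (blue) and MKO (red) array for 14 members, with black bars for the mean and SD of 3 arrays. Rplp1, Rpsa and Rps4x show tight groups that overlap, Rpl3l has MKO replicates 2 and 3 above its WT arrays, while Rps6 and Rpl39 scatter most. Heights cannot be compared between genes, since each depends on its probes.

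By brightness on the array the highest members were Rpl28, Rpl4 and Rplp1, and the lowest were Rpl39, Rpl17 and Rplp2. This order does not rank RNA amounts, since probes differ in how strongly they bind. Rpl4, which helps to form the narrow part of the exit tunnel, read 9.69, 9.79 and 9.58 in WT and 9.57, 9.55 and 9.84 in MKO over 10 rows (−0.04, SE 0.09). The 4 alternatives that turned its sign gave at most 0.02. Rpl17, a neighbour of Rpl4 at the tunnel, read 2.19, 3.09 and 2.47 in WT and 2.24, 2.20 and 2.79 in MKO on 2 dim rows (−0.17, SE 0.24).

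Rows of 1 gene often disagreed. A member had a median of 4 rows, and 12 members had 1. Among the 55 members with several rows, 45 had rows of both signs, and the levels of a gene's rows spanned a median of 4.94 log2 units. Of the 283 rows, 166 lay above the median row. Their median size of difference was 0.11, whichever the sign, against 0.20 for the 117 dimmer rows.

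In the fit over all rows, 0 of 283 passed the adjusted threshold, beside 0.0% of all rows, with a lowest adjusted p of 0.9766. At an unadjusted p under 0.05, 3 were higher and 8 lower, against 2.20% and 2.80% of all rows, or 11 against 5.0% together. MKO and WT values did not overlap for 8 higher and 20 lower rows, against 4.81% and 5.05% of all rows (9.86% together), and 168 of 283 had a lower mean in MKO, against 51.3%. The smallest p belonged to a dim row of Rpl39l, 17322804, at 3.96, 3.29 and 3.54 in WT and 2.56, 1.95 and 2.02 in MKO (−1.42, SE 0.40). A dim row of Rps9, 17473242, read 3.35, 3.91 and 3.35 in WT and 1.996, 1.61 and 2.62 in MKO (−1.46, SE 0.43). Both lay far below the brighter rows of the same genes, and a bright Rps9 row, 17473238, went the other way (0.57, SE 0.21). Row 17251431 of Rpl26, a protein at the tunnel exit, read 5.47, 5.15 and 5.38 in WT and 4.84, 3.31 and 3.86 in MKO (−1.33, SE 0.45). The 4 rows of Rpl26 ran from −1.33 to 0.46. The gene's difference was −0.25 (SE 0.21), and its bright rows alone gave 0.28.

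Rpl9 showed the same spread among its 6 rows, from −1.33 to 0.65 around a gene difference of −0.25 (SE 0.18). Among bright rows, which were looked at after their values were seen, row 17342767 of Rps10, a protein of the small subunit head, read 8.67, 8.36 and 8.14 in WT and 7.79, 8.003 and 7.85 in MKO (−0.51, SE 0.17). The mean of the 7 Rps10 rows differed by −0.01.

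**Figure D5:**
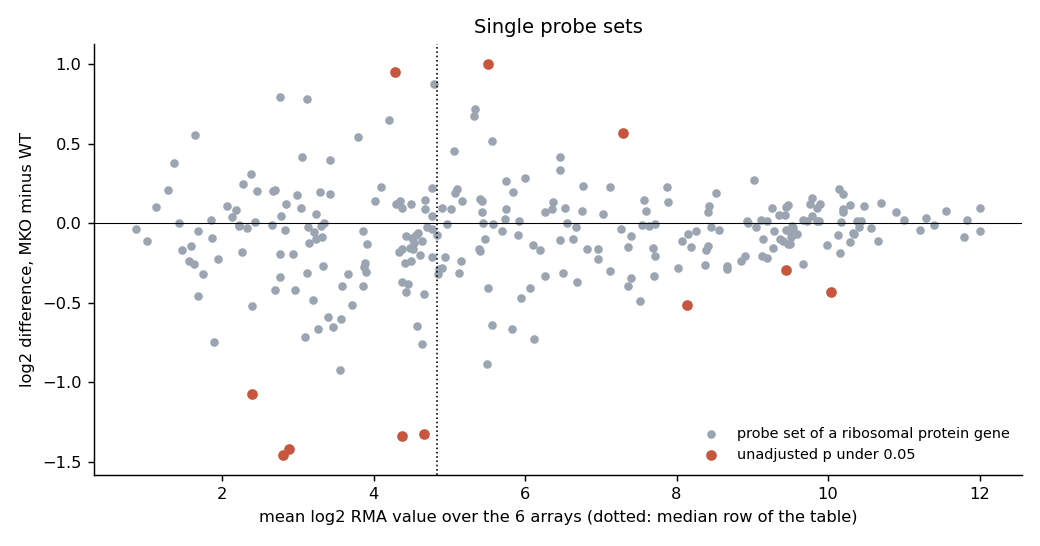
Log2 difference MKO minus WT (vertical axis) of the 283 rows of ribosomal protein genes against their mean log2 RMA value over 6 arrays, with the 11 rows at an unadjusted p under 0.05 in red and the median row of the table dotted. Differences spread widely among dim rows and narrow toward bright ones, and the 5 most negative red points lie left of the dotted line.

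Rows that name a ribosomal protein gene together with other names, mostly pseudogenes and small nucleolar RNAs of its introns, were left out by the rule. There were 144 such rows for 36 genes, of which 29 were members. The 7 others were Rpl12 (0.12, SE 0.15), Rpl23 (0.09, SE 0.14), Rpl24 (0.00, SE 0.17), Rpl35a (−0.10, SE 0.19), Rpl36 (0.19, SE 0.11), Rpl36a (−0.12, SE 0.13) and Rps21 (0.03, SE 0.11). None of these passed the adjusted threshold. Among members the added rows moved Rps2 from −0.16 to 0.13, Rpl39 from −0.17 to 0.09 and Rps27 from 0.13 to −0.02.

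Other parts of the translation machinery were read beside the members. Of 28 measured translation factors and other TOP mRNAs, 20 were lower (71.4%), with a median of −0.04. All 28 lay above the median gene, where 61.6% of all genes were lower, with a median of −0.04. With limma, 0 passed the adjusted threshold, beside 0.0% of all genes. At an unadjusted p under 0.05 there were 0 higher and 2 lower, where 1.92% and 2.41% of all genes were. Eef1a1, the factor that brings tRNA to the ribosome, read 6.86, 6.86 and 6.79 in WT and 6.14, 6.65 and 6.54 in MKO (−0.39, SE 0.14). Eif3k, a subunit of an initiation factor, read 7.19, 7.27 and 7.20 in WT and 6.75, 7.01 and 7.05 in MKO (−0.28, SE 0.11). For both, no MKO value reached the lowest WT value, and MKO replicate 1 was the lowest array, as for 23.9% of all genes. Without MKO replicate 1 the list's median was 0.02.

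Of 83 genes of ribosome assembly and RNA polymerase I, 35 were higher and 48 lower, with a median of −0.03 and 0 past the threshold of limma, adjusted or not. Npm1, a nucleolar chaperone, differed by 0.32 (SE 0.16), the assembly factor Rpf2 by −0.32 (SE 0.17) and the kinase Riok1 by −0.34 (SE 0.21). Of 45 genes of mTORC1 and S6 kinase signalling, 19 were higher and 26 lower, with a median of −0.01. With limma, 0 passed the adjusted threshold, beside 0.0% of all genes. At an unadjusted p under 0.05 there were 2 higher and 2 lower of the 45, where 1.92% and 2.41% of all genes were. Ddit4, an inhibitor of mTORC1, read 6.25, 6.19 and 7.001 in WT and 6.80, 6.88 and 7.26 in MKO (0.50, SE 0.20), with WT replicate 3 above 2 MKO arrays. Sesn1, another inhibitor that senses leucine, read 6.47, 6.67 and 6.63 in WT and 6.27, 6.18 and 6.46 in MKO (−0.28, SE 0.12). The scaffold gene Lamtor1, listed on the array as 2400001E08Rik, differed by 0.26 (SE 0.11) and turned to −0.09 with the median of its rows. Of 3 measured relatives outside the rule, Rsl24d1, an assembly factor that resembles Rpl24, differed by 0.23 (SE 0.14), Rpl7l1 by 0.11 (SE 0.16) and Rpl22l1, the relative of Rpl22, by 0.09 (SE 0.17). The 75 mitochondrial ribosomal proteins, which build the separate ribosome of that organelle, had a median of −0.00, with 37 higher and 38 lower.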

How the data were processed

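RNA of 6 soleus muscles, 3 WT and 3 MKO, was measured on Affymetrix Mouse Gene 2.0 ST arrays, 1 array per mouse. The authors deposited log2 values from RMA in Affymetrix Expression Console, per the submitters' processing notes. RMA subtracts background, scales arrays to one distribution and combines the probes of a row, which narrows differences shared by all genes. The sources used here name no version or genome build.

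Of 269751 rows, 233753 had exactly 1 gene symbol, 5106 several and 30892 none in the platform annotation, which is old. A gene's value was the mean of its rows with 1 symbol, for 23152 genes. The comparison MKO minus WT was fitted over all genes with limma 3.58.1 in R 4.3.3 (lmFit, eBayes with a variance trend, two-sided, Benjamini-Hochberg adjustment, threshold 0.05) and again over all rows. All p-values come from this fit unless an exact permutation test is named. Intervals are 95% intervals of the fit, not adjusted for the number of genes. The local pooled error (LPE) test that the authors named was re-implemented as an alternative. The other alternatives changed the variance model, the array weights, the replicate block, the scaling, the level filter or the summary of probe sets, or left out 1 array. Adding rows with several symbols was chosen after seeing the data.

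The labels do not state whether same-numbered mice were paired, and the main fit treats them as unpaired. Same-numbered WT and MKO arrays deviated from their group means with correlations of −0.088, 0.091 and −0.236 across genes. Those of arrays with different numbers ran from −0.226 to 0.296. With 3 arrays per group such correlations cannot settle whether mice were paired. Members and lists were chosen with earlier results of these data known. Members named with values were the stalk proteins and Rpsa, second copies with their parents and Rps4x, Rps6, the 6 smallest p in each direction, the 3 highest and 3 lowest levels, all with groups that did not overlap, and the 5 whose probe sets differed most. From each neighbouring list the 3 genes with the smallest p were eligible. Fits were tested on simulated data. Tables and figures were made with Python 3.11.15.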

Additional observations from a re-analysis of the deposited data

How the results depend on the processing

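No member passed the adjusted threshold in any of 17 alternatives, of which 1 is the LPE test and the rest are limma fits. Not every member entered each alternative. At an unadjusted p under 0.05, where 0 were higher and 0 lower, the counts (in brackets the share of all genes) were 3 and 3 with array weights (3.48% and 4.32%), 2 and 0 with quantile normalization (2.52% and 2.48%), 1 and 1 with the median of probe sets (2.09% and 2.49%), 1 and 1 by the LPE test (1.43% and 1.89%), 0 and 1 with bright probe sets only (1.71% and 2.62%), 2 and 0 with rows of several symbols (1.93% and 2.42%) and 0 and 1 with the replicate block (1.72% and 2.05%). With 1 array left out they were 0 to 2 higher (1.3% to 2.62%) and 0 to 4 lower (1.7% to 4.21%). Whether the numbers pair the mice is not known, and under the replicate block no adjusted call changed. The members' median of −0.07 was −0.0520 after quantile normalization, −0.0488 after median centring, −0.0444 for genes above the median level, −0.0364 with bright probe sets, −0.0335 with rows of several symbols, and −0.0922 to −0.0508 with 1 array left out. Restricted to bright probe sets, 5 of 166 rows instead of 11 of 283 were under an unadjusted p of 0.05. The share over all rows was 5.0% in the full fit. None is given here for all bright rows, so these counts cannot be compared.

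Signs turned as follows. With the median of probe sets, Rpl21 was −0.331, Rpl22 0.122, Rpl6 0.138, Rplp0 0.0095, Rplp2 −0.244, Rps27l 0.0714, Rps9 0.235, Rpsa −0.145 and 2400001E08Rik −0.0876. With bright probe sets, Rpl21 was −0.184, Rpl22 0.059, Rpl26 0.278, Rpl39l 0.0938, Rpl6 0.079, Rplp0 0.0257, Rps20 0.0989, Rps9 0.124 and Rpsa −0.0259. With rows of several symbols, Rpl21 was −0.0005, Rpl39 0.0926, Rps2 0.129, Rps25 −0.0008 and Rps27 −0.0236. With array weights, Rplp0 was 0.0766, Rplp2 −0.0299, Rps4x 0.0198 and Rps6 −0.264. Quantile normalization gave 0.0088 for Rpl4 and 0.006 for Rps4x, and the LPE test 0.0121 for Rps4x. With 1 array left out, Rpl17 ran from −0.370 to 0.0786, Rpl39 from −0.436 to 0.129, Rpl4 from −0.132 to 0.017, Rplp0 from −0.307 to 0.0553, Rplp1 from −0.0073 to 0.0831, Rplp2 from −0.116 to 0.169, Rps27 from −0.032 to 0.279, Rps4x from −0.0726 to 0.0238 and Rps6 from −0.267 to 0.596. The median of the mTORC1 list was 0.0271 after quantile normalization, 0.0104 after median centring and −0.0582 to 0.0349 with 1 array left out. That of the TOP list ran from −0.0945 to 0.0162. The causes were not tested. Rows near background limit what dim members can show.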
